A study of Mus musculus with 6 samples.

Results

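The G2/M and mitosis genes described here are 50 named mouse genes whose products carry a cell from the end of G2 through chromosome segregation to cytokinesis. They were chosen by name from 8 functional groups and read from the deposited expression table through probesets annotated with exactly 1 gene symbol, with the brightest probeset standing for its gene. Of the 50, 48 were found among the 22180 genes of the table with 1 symbol, and Ccnb1 and Ncapg were not matched. Of those 48, 41 passed a filter that kept 14020 genes, namely a level at or above the array's median on at least 2 of 6 arrays. The other 7, Cenpe, Ect2, Kif11, Ndc80, Prc1, Smc2 and Tpx2, were dim and were left out of the tests. Among the 41, 30 were at or above the median on all 6 arrays, and 5 (Bub1b, Cdc25b, Cdc25c, Cenpf and Smc4) passed on only 2 or 3 arrays.

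The samples were blastocysts of let7g-transgenic mice, so every group carried the let-7g transgene, including the day 4 group that served as the control. D4-act-7g were blastocysts collected on day 4 in the activated state, Dor-7g were blastocysts dormant in vivo on day 7, and DOX-7g were blastocysts made dormant in vitro, by day 7, through DOX-induced let-7. Each group had 2 arrays, and the labels name RNA of 10 blastocysts per group without saying whether each array had its own mice or its own pool. All p-values therefore speak of the spread among arrays, which may be technical. The promoter that drives the transgene, the tissues it is active in and the age and strain background of the mice are not given in the sources used here. Day and dormancy cannot be told apart between Dor-7g and D4-act-7g. Between DOX-7g and D4-act-7g the day, the culture, the DOX itself and let-7 induction cannot be told apart. The culture, the DOX itself and let-7 induction cannot be told apart between DOX-7g and Dor-7g either, although both are of day 7.

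Entry into mitosis is driven by Cdk1 bound to cyclin A or cyclin B, which Cdc25 phosphatases activate and which sets off chromosome condensation and spindle assembly. Kinetochores then attach chromosomes to spindle microtubules under the watch of the spindle checkpoint, until the anaphase-promoting complex (APC/C) with its activator Cdc20 triggers separase and the exit from mitosis. Most of these genes are transcribed late in the cell cycle, when B-Myb and FoxM1 replace the repressive DREAM complex at promoters that carry the cell cycle genes homology region (CHR) and NF-Y boxes. In a mouse blastocyst both the trophectoderm and the inner cell mass divide, and diapause is the reversible state in which the blastocyst nearly stops dividing before implantation.

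The microRNA that the transgene supplies is shown first, since every group carried that transgene. Mature mmu-let-7g-5p has 22 bases and is read from chr9:106178846-106178867 on the plus strand of GRCm38.p6 in RefSeq, with the seed, bases 2 to 8, in capitals.
mmu-let-7g-5p: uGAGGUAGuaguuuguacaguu
No seed match was looked for in the members' transcripts.

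The promoter windows of 5 members are shown next, since the CHR and the NF-Y box are the known motifs of G2/M promoters, and these 5 windows differ in how many they hold. Birc5, Mad2l1 and Kif22 passed the test given below, and Ccnb2 and Cdc20 were added after their values were seen. Each window runs from 250 bases before to 50 bases after the RefSeq start site (GRCm38.p6), on the gene's own strand, and capitals mark matches to TTTGAA (the CHR) or CCAAT (the NF-Y box) on either strand, so that TTCAAA and ATTGG are matches on the opposite strand.
Birc5, chr11:117848987-117849286, plus strand: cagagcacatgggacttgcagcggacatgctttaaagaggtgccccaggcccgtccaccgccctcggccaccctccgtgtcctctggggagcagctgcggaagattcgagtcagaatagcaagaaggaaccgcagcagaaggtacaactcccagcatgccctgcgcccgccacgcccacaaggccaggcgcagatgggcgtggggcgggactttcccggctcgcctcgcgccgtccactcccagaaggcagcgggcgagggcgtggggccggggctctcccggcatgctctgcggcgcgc
Mad2l1, chr6:66534971-66535270, plus strand: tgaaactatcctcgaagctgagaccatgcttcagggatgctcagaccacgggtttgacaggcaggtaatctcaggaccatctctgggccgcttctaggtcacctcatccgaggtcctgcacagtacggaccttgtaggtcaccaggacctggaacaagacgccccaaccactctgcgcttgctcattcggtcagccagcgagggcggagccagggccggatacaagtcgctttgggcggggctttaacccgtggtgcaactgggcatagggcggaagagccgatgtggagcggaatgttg
Kif22, chr7:127042371-127042670, minus strand: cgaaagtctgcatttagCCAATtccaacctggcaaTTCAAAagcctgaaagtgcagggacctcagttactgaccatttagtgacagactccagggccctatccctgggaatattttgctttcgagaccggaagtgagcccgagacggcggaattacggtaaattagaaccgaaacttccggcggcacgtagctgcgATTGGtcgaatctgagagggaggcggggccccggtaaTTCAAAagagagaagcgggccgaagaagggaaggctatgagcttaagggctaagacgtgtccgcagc
Ccnb2, chr9:70421505-70421804, minus strand: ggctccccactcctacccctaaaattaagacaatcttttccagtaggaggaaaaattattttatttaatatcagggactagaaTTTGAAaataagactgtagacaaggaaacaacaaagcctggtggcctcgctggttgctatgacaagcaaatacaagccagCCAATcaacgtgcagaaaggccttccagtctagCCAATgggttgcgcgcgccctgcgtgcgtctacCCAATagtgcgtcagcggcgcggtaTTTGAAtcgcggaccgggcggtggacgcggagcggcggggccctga
Cdc20, chr4:118437294-118437593, minus strand: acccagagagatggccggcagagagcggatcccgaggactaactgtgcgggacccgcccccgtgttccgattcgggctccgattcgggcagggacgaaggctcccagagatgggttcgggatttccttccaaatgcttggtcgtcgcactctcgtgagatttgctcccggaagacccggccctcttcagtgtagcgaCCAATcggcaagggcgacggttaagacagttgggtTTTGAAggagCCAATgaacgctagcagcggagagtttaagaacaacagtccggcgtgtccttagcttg
Ccnb2 held 2 CHR and 3 NF-Y matches, Kif22 held 2 of each, and Cdc20 held 1 CHR and 2 NF-Y matches. Neither motif was found in the windows of Birc5 and Mad2l1, which says only that these letters are not in these windows.

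Levels are log2 values as deposited, so a difference of 1 is a 2-fold difference, and each ± after a difference is the moderated standard error of limma with n = 2 arrays per group. Array medians lay between 4.62 and 4.87. Dor-7g replicate 1 stood apart: it had the highest median, and its values correlated with those of the other 5 arrays at 0.899 to 0.919 across probesets, against 0.978 within D4-act-7g and 0.969 within DOX-7g. The blastocyst markers Krt8, Krt18, Cdx2, Gata3, Eomes, Pou5f1, Nanog, Gata6, Gata4 and Sox17 were at or above the median on all 6 arrays. Tfap2c was so on 5 arrays, all but Dor-7g replicate 1, and Pdgfra on 4. Sox2, of the inner cell mass, was below the median on all 6.

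The first comparison, Dor-7g against D4-act-7g, asks how the mitosis genes differ between in vivo dormancy and the activated state of day 4. Most members were lower in Dor-7g, and 4 passed the threshold of 0.05 on the p-value adjusted over all 14020 genes: the passenger complex gene Birc5, the checkpoint gene Mad2l1, the kinetochore gene Spc24 and Kif22, which encodes a chromosome-binding kinesin. These 4 of 41 were called lower, where 0.742% of all genes were, and no member was called higher, where 0.243% of all genes were. At an unadjusted p under 0.05, 26 members were lower (8.81% of all genes) and 0 were higher (5.44% of all genes). Among the 26, Cdc25c, Bub1b and Smc4 were below the median on both Dor-7g arrays and passed the filter only through other groups. Over the 48 members, filtered or not, the median difference was -0.66, with 46 below 0, beside 0.10 over all 22180 genes, of which 36.6% were below 0. Both Dor-7g arrays lay below both D4-act-7g arrays for 36 of the 48 (15.9% of all genes) and above both for 2 (27% of all genes), Cdc25b and Kif2c. In bulk samples of this kind, fewer dividing cells and less RNA per cell cannot be told apart.

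The median difference was about as large without the array that stood apart. Without Dor-7g replicate 1 the median over the tested members was -0.79, against -0.81 with it. Without Dor-7g replicate 2 that median was -0.77. Without either D4-act-7g replicate no member passed in limma, and only 11 to 15 genes of all did, with member medians of -0.88 and -0.79. The number of calls thus moved with single arrays far more than the sizes of the differences did.

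The second comparison, DOX-7g against D4-act-7g, asks the same of dormancy induced in vitro. Most members were again lower, with a median nearer to 0: over the 48 members it was -0.43, with 47 below 0, beside -0.03 over all genes, of which 54.9% were below 0. Birc5 alone passed the threshold, lower in DOX-7g, where 0.25% of all genes were called lower, and no member was called higher, where 0.706% of all genes were. At an unadjusted p under 0.05, 13 members were lower (6.4% of all genes) and 0 were higher (4.61% of all genes). Both DOX-7g arrays lay below both D4-act-7g arrays for 34 of the 48 members (25.8% of all genes) and above both for 1, Cdc25b (19% of all genes). Leaving out any 1 array of D4-act-7g or DOX-7g ended the call of Birc5 and left 0 members called in limma, while leaving out either Dor-7g array kept it and added Sgo2a. This comparison and that of Dor-7g share the D4-act-7g arrays, so their values are given side by side and not as 2 separate observations.

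The direct comparison of DOX-7g with Dor-7g asked whether the dormant groups differ from each other. No member passed the threshold in limma in either direction, where 0.121% of all genes were called lower and 1.04% higher, and none passed under the other 10 analysis settings. At an unadjusted p under 0.05, 13 members were higher in DOX-7g (6.06% of all genes) and 0 were lower (5.53% of all genes). The median over the 48 members was 0.20, with 9 below 0, beside -0.12 over all genes, of which 67.2% were below 0. Both DOX-7g arrays lay above both Dor-7g arrays for 21 members (11.7% of all genes) and below both for 2, Cdc25b and Kif2c (28.2% of all genes). Without Dor-7g replicate 2, 8 members passed, all higher in DOX-7g: Birc5, Ccna2, Cdk1, Cenpa, Cks2, Mad2l1, Spc24 and Ube2c, where 6.28% of all genes passed in either direction.

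**Figure D1:**
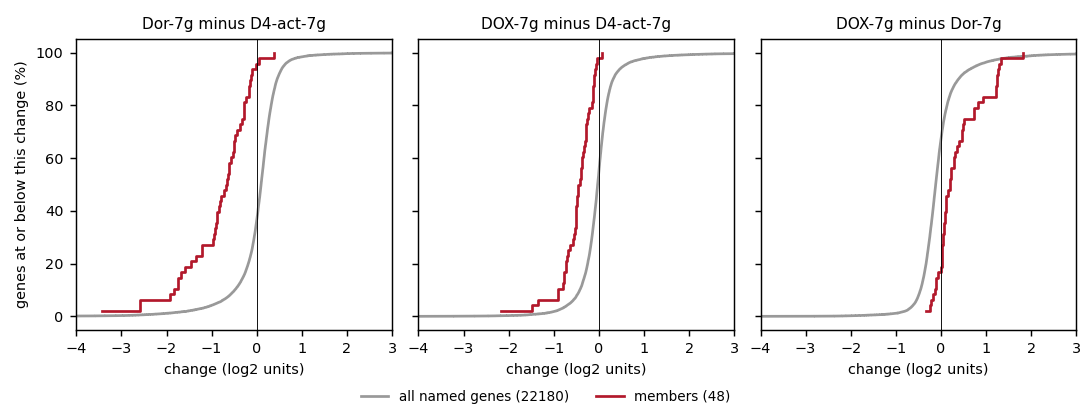
Share of genes (vertical axis, percent) at or below each log2 difference (horizontal axis) for the 48 members, in red, and all 22180 named genes, in grey, in the 3 comparisons. The red curve lies left of the grey one in both comparisons with D4-act-7g, with medians of -0.66 and -0.43, and right of it over most of its length in DOX-7g minus Dor-7g, with a median of 0.20.

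Centring each array on its median moved the median of all tested genes in Dor-7g minus D4-act-7g from 0.06 to -0.07, and that of the tested members from -0.81 to -0.94. Under that scaling or a second quantile normalization the sign turned for 1 member, Kif2c, in Dor-7g minus D4-act-7g, for none in DOX-7g minus D4-act-7g, and for Aurkb, Bub1b, Cks1b, Espl1, Foxm1, Prc1 and Sgo2a in DOX-7g minus Dor-7g. Array by array, 42 and 46 of the 48 members lay below their D4-act-7g mean on Dor-7g replicates 1 and 2, and 46 and 43 on DOX-7g replicates 1 and 2. Of all genes, 32.5% and 51.1% lay below on the Dor-7g arrays, and 58.4% and 50.9% on those of DOX-7g. The median member stood at -0.71 on both Dor-7g arrays, at -0.57 on DOX-7g replicate 1 and at -0.27 on DOX-7g replicate 2, where the medians of all genes were 0.17 and -0.01 in Dor-7g and -0.05 and -0.01 in DOX-7g. The DOX-7g arrays thus differed from each other in this measure more than the Dor-7g arrays did.

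**Figure D2:**
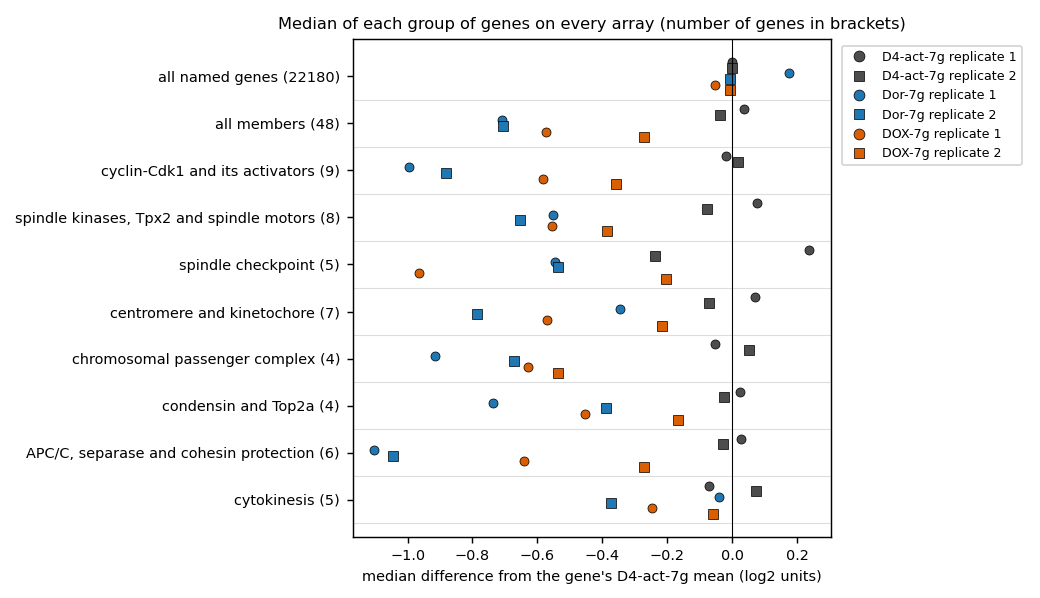
Median difference of each group of genes from its D4-act-7g mean (horizontal axis, log2 units) on each of the 6 arrays, with the number of genes in brackets. Over all members the Dor-7g arrays sit at -0.71 and the DOX-7g arrays at -0.57 and -0.27, and all 8 groups of members have medians below 0 on all 4 dormant arrays.

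The genes of cyclin-Cdk1 and its activators had a median difference of -1.22 over 9 genes in Dor-7g, beside -0.48 in DOX-7g, and none of them passed the test. Ccnb2, which encodes the cyclin B2 partner of Cdk1, read 9.84 and 9.87 on the D4-act-7g arrays, 8.18 and 8.63 on those of Dor-7g, and 9.01 and 9.27 on those of DOX-7g. Ccna2, encoding cyclin A2 of S phase and early mitosis, read 8.24 and 8.54, then 6.14 and 6.97, then 7.72 and 8.07. Cdk1, the mitotic kinase itself, read 8.49 and 7.99, then 4.59 and 6.72, then 7.42 and 7.53. For all 3 genes the groups did not overlap, with D4-act-7g highest, DOX-7g between and Dor-7g lowest, and for Cdk1 the Dor-7g arrays lay far apart, with the low value on the array that stood apart. For Ccnb2 the difference from D4-act-7g was -1.45 ± 0.22 in Dor-7g (limma, adjusted p = 0.0585) and -0.72 ± 0.22 in DOX-7g (adjusted p = 0.308). For Ccna2 the difference was -1.83 ± 0.32 in Dor-7g (limma, adjusted p = 0.0813) and -0.49 ± 0.32 in DOX-7g (adjusted p = 0.706). For Cdk1, which is named here after its values were seen, it was -2.58 ± 0.66 in Dor-7g (limma, adjusted p = 0.175), and -1.52 without Dor-7g replicate 1 (adjusted p = 0.0747). None of these differences passed the threshold, although the shift of Cdk1 was among the largest of all members.

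Cdc25c, a phosphatase that activates Cdk1, read 5.34 and 5.37 on the D4-act-7g arrays, 4.36 and 4.55 on those of Dor-7g, and 4.73 and 4.59 on those of DOX-7g, so that it was below the array median in Dor-7g and on DOX-7g replicate 2. Cdca3, a cell division cycle associated protein, read 7.46 and 7.71, then 6.72 and 6.02, then 7.01 and 7.20. Both were lower on every array of both dormant groups than on the D4-act-7g arrays. For Cdc25c the difference was -0.90 ± 0.18 in Dor-7g (limma, adjusted p = 0.102) and -0.70 ± 0.18 in DOX-7g (adjusted p = 0.204). For Cdca3 it was -1.22 ± 0.28 in Dor-7g (limma, adjusted p = 0.142) and -0.48 ± 0.28 in DOX-7g (adjusted p = 0.653). The small Cdk-binding protein gene Cks2 was the brightest member, at 13.25 and 13.26 on the D4-act-7g arrays, 10.79 and 12.37 on those of Dor-7g, and 12.81 and 12.89 on those of DOX-7g. Cks2 has 4 probesets, 3 of them with identical values, and the other gave 13.14 and 13.19, then 11.67 and 12.18, then 12.54 and 12.61, in the same order of groups. The remaining 3 showed smaller differences: Foxm1, the transcription factor of G2/M genes, stood at -0.28 in both dormant groups, and Cks1b, the relative of Cks2, at -0.17 in Dor-7g and -0.11 in DOX-7g. Cdc25b, another Cdk1-activating phosphatase, went the other way, at 0.39 ± 0.22 in Dor-7g (limma, adjusted p = 0.475). It read 5.19 and 4.70 there against 4.54 and 4.57 in D4-act-7g, with 5.19 on the array that stood apart. Its levels were below the array median on both D4-act-7g arrays and on DOX-7g replicate 2.

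**Figure D3:**
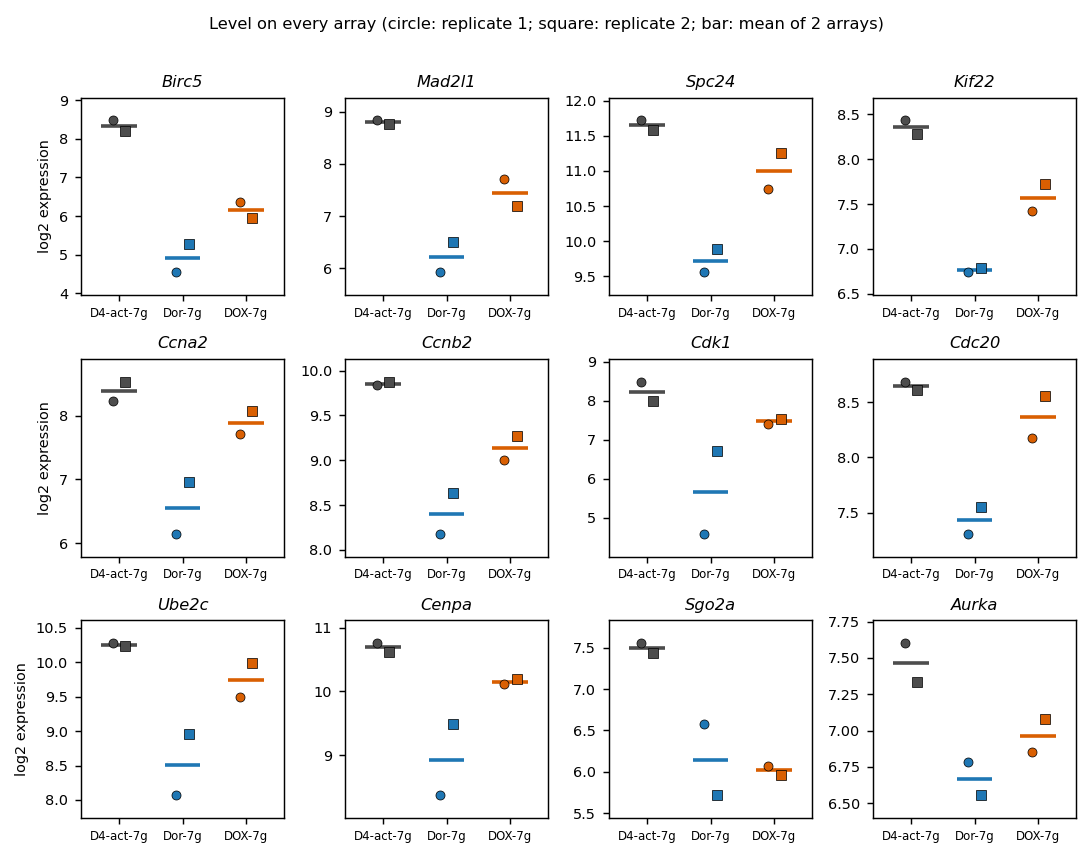
Level of 12 members (vertical axes, log2 expression, each with its own range) on every array, with circles for replicate 1, squares for replicate 2 and a bar for the mean of each group's 2 arrays. D4-act-7g is highest in every panel, Dor-7g is lowest in all panels but that of Sgo2a, and the Dor-7g arrays of Cdk1 lie apart at 4.59 and 6.72.

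Among the spindle kinases, Tpx2 and spindle motors, 1 of 6 tested genes was called lower in Dor-7g (0.742% of all genes) and none in DOX-7g (0.25%). The medians over the 8 genes on the array were -0.60 and -0.48, with 7 and 8 of them below 0 (36.6% and 54.9% of all genes). Kif22, the kinesin-10 motor that pushes chromosome arms toward the spindle equator, read 8.43 and 8.28 on the D4-act-7g arrays, 6.74 and 6.78 on those of Dor-7g, and 7.42 and 7.72 on those of DOX-7g. The groups did not overlap, and the Dor-7g arrays lay closer together than the D4-act-7g arrays did. In Dor-7g Kif22 fell by 1.60 ± 0.19 (limma, adjusted p = 0.028), while in DOX-7g its difference was -0.79 ± 0.19 (adjusted p = 0.187). The call of Kif22 was kept without either Dor-7g array and lost without any other single array. Plk4, the kinase that starts centriole duplication, read 6.38 and 6.10, then 5.35 and 5.27, then 5.45 and 5.22. For Plk4 the difference was -0.93 ± 0.19 in Dor-7g (limma, adjusted p = 0.117) and -0.91 ± 0.19 in DOX-7g (adjusted p = 0.148). Its dormant groups overlapped each other, and both lay below D4-act-7g.

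Aurka, the centrosomal Aurora kinase, read 7.60 and 7.34 on the D4-act-7g arrays, 6.78 and 6.55 on those of Dor-7g, and 6.85 and 7.08 on those of DOX-7g. Plk1, the Polo-like kinase of mitotic entry and spindle assembly, read 7.54 and 7.39, then 7.00 and 6.81, then 6.94 and 7.08. Both kinases were lower on all 4 dormant arrays than on the D4-act-7g arrays, by less than 1 log2 unit. For Aurka the difference was -0.80 ± 0.20 in Dor-7g (limma, adjusted p = 0.17) and -0.50 ± 0.20 in DOX-7g (adjusted p = 0.45). For Plk1 it was -0.56 ± 0.18 in Dor-7g (limma, adjusted p = 0.247) and -0.45 ± 0.18 in DOX-7g (adjusted p = 0.444). Nek2, a centrosomal kinase, overlapped between groups, at -0.33 in Dor-7g and -0.12 in DOX-7g. Kif2c, a kinesin that depolymerizes microtubules, stood at 0.05 ± 0.16 in Dor-7g (limma, adjusted p = 0.903) and -0.13 ± 0.16 in DOX-7g (adjusted p = 0.902). The dim genes Tpx2, an Aurora A activator, and Kif11, the motor that separates spindle poles, stood at -0.64 and -0.25 in Dor-7g, below the array median on all 6 arrays.

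In the spindle checkpoint group 1 of 5 genes was called lower in Dor-7g (0.742% of all genes) and none in DOX-7g (0.25%). The medians were -0.62 in Dor-7g and -0.57 in DOX-7g, with all 5 below 0 in both (36.6% and 54.9% of all genes). Mad2l1, which encodes the Mad2 protein that holds Cdc20 inactive until chromosomes are attached, read 8.83 and 8.77 on the D4-act-7g arrays, 5.92 and 6.51 on those of Dor-7g, and 7.71 and 7.19 on those of DOX-7g. The 3 groups did not overlap, and DOX-7g lay between the others. In Dor-7g Mad2l1 fell by 2.58 ± 0.28 (limma, adjusted p = 0.0225), while its difference in DOX-7g was -1.35 ± 0.28 (adjusted p = 0.14). Between the dormant groups it was 1.24 ± 0.28 (limma, adjusted p = 0.182). The call in Dor-7g was kept without either Dor-7g array, at -2.29 without replicate 1.

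The other checkpoint genes lay nearer to their D4-act-7g levels. Bub1b, encoding the BubR1 checkpoint kinase, read 5.18 and 5.57 on the D4-act-7g arrays, 4.83 and 4.58 on those of Dor-7g, and 4.38 and 4.89 on those of DOX-7g. Bub3, its binding partner, read 7.29 and 6.81, then 6.57 and 6.52, then 7.07 and 6.93. Ttk, the Mps1 kinase that starts checkpoint signalling, read 6.22 and 5.28, then 4.98 and 5.28, then 4.79 and 5.58. Bub1b was lower on all 4 dormant arrays, Bub3 only on the Dor-7g arrays, and the 2 D4-act-7g arrays of Ttk lay nearly 1 unit apart. For Bub1b the difference was -0.67 ± 0.26 in Dor-7g (limma, adjusted p = 0.327) and -0.74 ± 0.26 in DOX-7g (adjusted p = 0.376). For Bub3 it was -0.50 ± 0.22 in Dor-7g (limma, adjusted p = 0.373) and -0.05 ± 0.22 in DOX-7g (adjusted p = 0.983). For Ttk it was -0.62 ± 0.40 in Dor-7g (limma, adjusted p = 0.535) and -0.57 ± 0.40 in DOX-7g (adjusted p = 0.746). Bub1, the kinase that marks kinetochores, overlapped between all groups, at -0.28 in Dor-7g and -0.51 in DOX-7g.

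**Figure D4:**
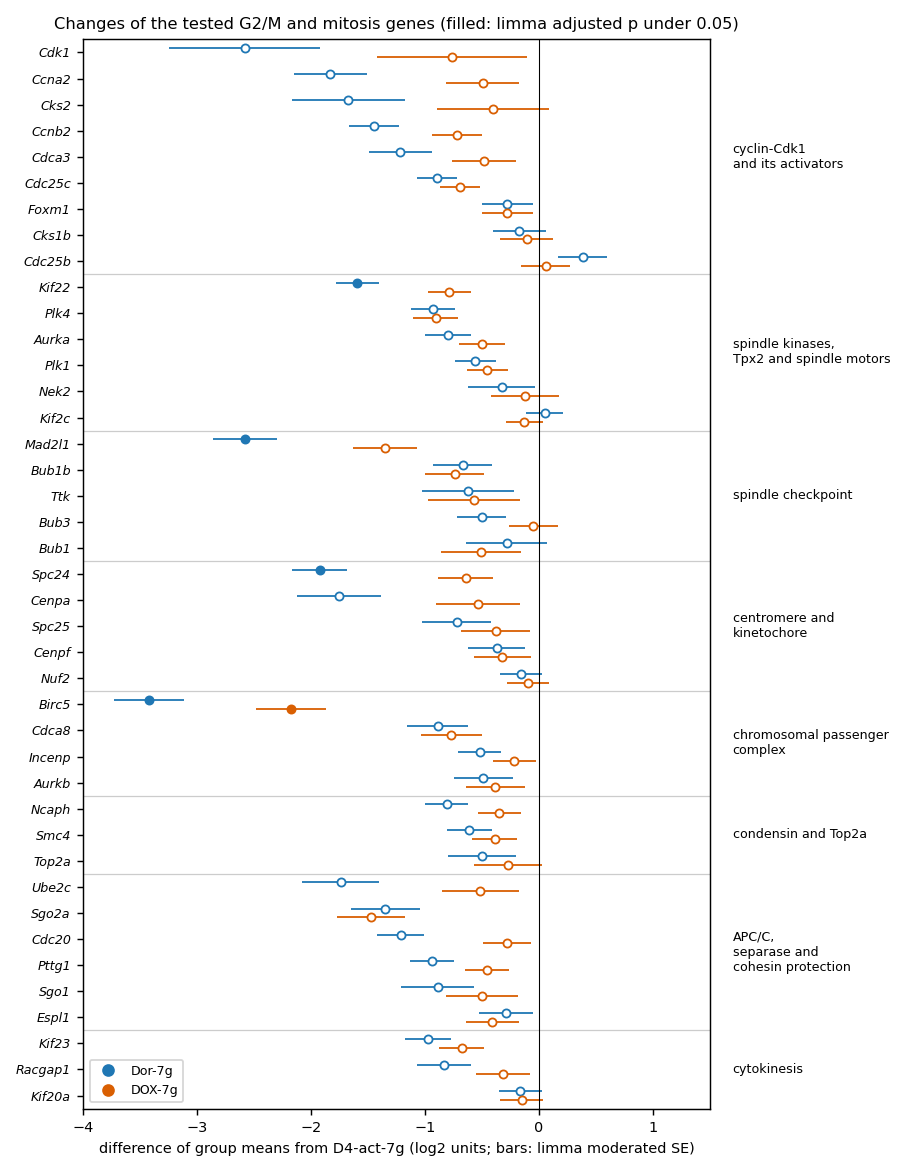
Difference from D4-act-7g (horizontal axis, log2 units, bars for limma's moderated SE) of the 41 tested members in Dor-7g, blue, and DOX-7g, orange, sorted within their 8 groups, with filled points for a limma adjusted p under 0.05. Birc5, Mad2l1, Spc24 and Kif22 are filled for Dor-7g and Birc5 alone for DOX-7g, and nearly all points lie left of 0.

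Of the centromere and kinetochore genes, 1 of 5 tested genes was called lower in Dor-7g (0.742% of all genes) and none in DOX-7g (0.25%). The medians over the 7 on the array were -0.65 and -0.38, with all 7 below 0 in both (36.6% and 54.9% of all genes). Spc24, a subunit of the Ndc80 complex that binds spindle microtubules, read 11.72 and 11.58 on the D4-act-7g arrays, 9.55 and 9.89 on those of Dor-7g, and 10.75 and 11.26 on those of DOX-7g. Cenpa, the histone H3 variant that marks centromeres, read 10.75 and 10.62, then 8.37 and 9.49, then 10.11 and 10.20. In both genes the groups kept apart in the order D4-act-7g, DOX-7g, Dor-7g, and the Dor-7g arrays of Cenpa lay over 1 unit apart. In Dor-7g Spc24 fell by 1.93 ± 0.24 (limma, adjusted p = 0.0324), and its difference in DOX-7g was -0.65 ± 0.24 (adjusted p = 0.42). The call of Spc24 was kept under 7 of 10 other settings. It was kept without Dor-7g replicate 2 and lost without any other single array. The difference of Spc24 between the dormant groups, 1.28 ± 0.24, had the smallest adjusted p of any member in that comparison (limma, adjusted p = 0.117). For Cenpa the difference was -1.75 ± 0.37 in Dor-7g (limma, adjusted p = 0.12) and -0.53 ± 0.37 in DOX-7g (adjusted p = 0.733).

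The other subunits of the Ndc80 complex did not follow Spc24 in size. Spc25, the direct partner of Spc24, read 7.62 and 7.33 on the D4-act-7g arrays, 7.13 and 6.38 on those of Dor-7g, and 6.93 and 7.26 on those of DOX-7g, a difference of -0.72 ± 0.30 in Dor-7g (limma, adjusted p = 0.367). Nuf2 overlapped between the groups, at -0.16 in Dor-7g and -0.10 in DOX-7g, and the dim Ndc80 stood at -0.65 and -0.90. The unequal sizes were not tested against each other, and a dim level can compress a difference. Cenpf, a large outer kinetochore protein, read 4.99 and 5.06, then 4.86 and 4.44, then 4.45 and 4.95, with both dormant groups below D4-act-7g by small steps. For Cenpf the difference was -0.37 ± 0.25 in Dor-7g (limma, adjusted p = 0.551) and -0.32 ± 0.25 in DOX-7g (adjusted p = 0.783). Cenpe, a dim kinetochore motor, stood at -0.44 in Dor-7g and -0.29 in DOX-7g.

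All 4 genes of the chromosomal passenger complex, which corrects faulty attachments and guides cytokinesis, were lower on every array of both dormant groups. Of all genes, 15.9% were so in Dor-7g and 25.8% in DOX-7g. Of the 4, 1 was called lower in both groups (0.742% and 0.25% of all genes). Birc5, encoding survivin, the subunit that brings the complex to centromeres, read 8.47 and 8.19 on the D4-act-7g arrays, 4.54 and 5.27 on those of Dor-7g, and 6.37 and 5.94 on those of DOX-7g. The 3 groups lay clear of each other, with 4.54, on the array that stood apart, below that array's median. In Dor-7g Birc5 fell by 3.42 ± 0.31 (limma, adjusted p = 0.011), the largest difference of any member. In DOX-7g it fell by 2.18 ± 0.31 (limma, adjusted p = 0.0477). Between the dormant groups its difference was 1.25 ± 0.31 (limma, adjusted p = 0.21). Without Dor-7g replicate 1 the difference in Dor-7g was -3.06 (limma, adjusted p = 0.0169). The call in DOX-7g lay close to the threshold and was lost under 5 of 10 other settings.

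The other passenger genes differed by less than 1 unit. Cdca8, encoding borealin, read 7.06 and 7.08 on the D4-act-7g arrays, 5.85 and 6.51 on those of Dor-7g, and 6.14 and 6.46 on those of DOX-7g. Incenp, the scaffold of the complex, read 6.03 and 6.23, then 5.52 and 5.70, then 5.80 and 6.02. Aurkb, its kinase, read 7.48 and 7.78, then 7.44 and 6.84, then 7.33 and 7.17. The dormant groups overlapped each other for Cdca8 and Aurkb and did not for Incenp. For Cdca8 the difference was -0.89 ± 0.27 in Dor-7g (limma, adjusted p = 0.227) and -0.77 ± 0.27 in DOX-7g (adjusted p = 0.376). For Incenp it was -0.52 ± 0.19 in Dor-7g (limma, adjusted p = 0.303) and -0.22 ± 0.19 in DOX-7g (adjusted p = 0.82). For Aurkb it was -0.49 ± 0.26 in Dor-7g (limma, adjusted p = 0.45) and -0.38 ± 0.26 in DOX-7g (adjusted p = 0.72).

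None of the 3 tested condensin and Top2a genes passed the test, and the medians over the 4 on the array were -0.55 in Dor-7g and -0.31 in DOX-7g. Ncaph, the kleisin subunit of condensin I, read 5.67 and 5.76 on the D4-act-7g arrays, 4.85 and 4.96 on those of Dor-7g, and 5.20 and 5.53 on those of DOX-7g. Smc4, a condensin ATPase, read 5.19 and 5.00, then 4.35 and 4.61, then 4.59 and 4.82. Top2a, the topoisomerase that untangles sister chromatids, read 5.34 and 4.66, then 4.26 and 4.73, then 4.59 and 4.85. Ncaph and Smc4 were lower on all 4 dormant arrays, whereas Top2a overlapped between all groups. For Ncaph the difference was -0.81 ± 0.19 in Dor-7g (limma, adjusted p = 0.151) and -0.35 ± 0.19 in DOX-7g (adjusted p = 0.628). For Smc4 it was -0.61 ± 0.20 in Dor-7g (limma, adjusted p = 0.249) and -0.39 ± 0.20 in DOX-7g (adjusted p = 0.583). For Top2a it was -0.50 ± 0.30 in Dor-7g (limma, adjusted p = 0.507) and -0.27 ± 0.30 in DOX-7g (adjusted p = 0.878). The other condensin ATPase gene, Smc2, was dim and stood at -0.13 in Dor-7g and -0.06 in DOX-7g.

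All 6 genes of the APC/C, separase and cohesin protection were lower on every array of both dormant groups than in D4-act-7g. Among all genes, 15.9% (Dor-7g) and 25.8% (DOX-7g) were lower without overlap. Medians of the 6 were -1.08 for Dor-7g and -0.48 for DOX-7g. None passed the test, where 0.742% and 0.25% of all genes were called lower. Cdc20, the mitotic activator of the APC/C, read 8.68 and 8.61 on the D4-act-7g arrays, 7.31 and 7.55 on those of Dor-7g, and 8.18 and 8.55 on those of DOX-7g. Ube2c, its ubiquitin-conjugating enzyme, read 10.27 and 10.24, then 8.07 and 8.96, then 9.49 and 9.99. Pttg1, encoding securin, which restrains separase, read 9.33 and 9.29, then 8.43 and 8.31, then 8.68 and 9.03. In these 3 genes DOX-7g lay between D4-act-7g and Dor-7g with no overlap, and DOX-7g replicate 2 was the closer of its pair to D4-act-7g. For Cdc20 the difference was -1.22 ± 0.21 in Dor-7g (limma, adjusted p = 0.0778) and -0.28 ± 0.21 in DOX-7g (adjusted p = 0.769). For Ube2c it was -1.74 ± 0.34 in Dor-7g (limma, adjusted p = 0.101) and -0.52 ± 0.34 in DOX-7g (adjusted p = 0.711). For Pttg1 it was -0.94 ± 0.19 in Dor-7g (limma, adjusted p = 0.117) and -0.45 ± 0.19 in DOX-7g (adjusted p = 0.486). Between the dormant groups Cdc20 stood at 0.94 ± 0.21 (limma, adjusted p = 0.173) and Ube2c at 1.23 ± 0.34 (adjusted p = 0.269).

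Sgo2a, which encodes the shugoshin that guards centromeric cohesin, had a different order of groups. It read 7.55 and 7.43 on the D4-act-7g arrays, 6.57 and 5.72 on those of Dor-7g, and 6.08 and 5.96 on those of DOX-7g, so that the DOX-7g arrays lay between the Dor-7g arrays. For Sgo2a the difference was -1.35 ± 0.30 in Dor-7g (limma, adjusted p = 0.139) and -1.48 ± 0.30 in DOX-7g (adjusted p = 0.134). Sgo2a passed in DOX-7g without either Dor-7g array, and in Dor-7g without either Dor-7g array. With all 6 arrays it passed only with array weights, in DOX-7g. Its relative Sgo1 stood at -0.89 in Dor-7g and -0.50 in DOX-7g, and Espl1, encoding separase, at -0.29 and -0.41.

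The cytokinesis genes had medians of -0.17 in Dor-7g and -0.15 in DOX-7g over 5 genes, of which Ect2 and Prc1 were dim. Over the 3 tested the medians were -0.83 and -0.31, and none passed. Kif23, the kinesin of the centralspindlin complex, read 5.94 and 6.19 on the D4-act-7g arrays, 4.96 and 5.23 on those of Dor-7g, and 5.48 and 5.30 on those of DOX-7g. Racgap1, the partner of Kif23 in centralspindlin, read 6.57 and 6.48, then 5.78 and 5.61, then 5.93 and 6.49. Kif20a, a motor of the central spindle, read 5.24 and 5.39, then 5.27 and 5.03, then 5.07 and 5.26. The centralspindlin pair was lower on both Dor-7g arrays, while Kif20a overlapped between all groups. For Kif23 the difference was -0.97 ± 0.20 in Dor-7g (limma, adjusted p = 0.114) and -0.68 ± 0.20 in DOX-7g (adjusted p = 0.28). For Racgap1 it was -0.83 ± 0.24 in Dor-7g (limma, adjusted p = 0.21) and -0.31 ± 0.24 in DOX-7g (adjusted p = 0.77). For Kif20a it was -0.17 ± 0.19 in Dor-7g (limma, adjusted p = 0.716) and -0.15 ± 0.19 in DOX-7g (adjusted p = 0.901). The dim genes Ect2, a RhoA activator of the cleavage furrow, and Prc1, a microtubule bundler of the midzone, stood at -0.11 and -0.02 in Dor-7g with overlapping arrays.

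A further 144 mitosis genes in 8 lists that hold no member were read the same way, and 105 of the 135 on the array were tested. In Dor-7g minus D4-act-7g, 2 fell (0.742% of all genes were called lower) and none rose (0.243%). At an unadjusted p under 0.05, 27 were lower (8.81% of all genes) and 0 higher (5.44%), and the median over the 135 was -0.23, beside 0.10 over all genes. Mastl, the Greatwall kinase that protects the phosphorylation of Cdk1 substrates, went from 6.28 and 6.38 to 4.90 and 4.98. It fell by 1.39 ± 0.18 (limma, adjusted p = 0.0379). Ska1, of the kinetochore's microtubule-tracking complex, went from 6.88 and 7.21 to 5.38 and 4.74 and fell by 1.98 ± 0.27 (limma, adjusted p = 0.041), with 5.49 and 5.37 in DOX-7g. Both calls were lost when any 1 array of D4-act-7g or DOX-7g was left out, and that of Mastl also without Dor-7g replicate 1. Both were kept under 7 of 10 other settings. Over all alternatives the difference lay between -1.515 and -1.335 for Mastl and between -2.301 and -1.664 for Ska1. In DOX-7g minus D4-act-7g none passed in limma, where 0.25% of all genes were called lower and 0.706% higher. At an unadjusted p under 0.05, 17 were lower (6.4% of all genes) and 1 higher (4.61%), and the median was -0.22, beside -0.03 over all genes.

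The list medians spanned a wide range in Dor-7g. Other checkpoint and passenger genes stood at -0.70 (10 genes), with Haspin, the kinase that marks centromeres for the passenger complex, at -2.56 ± 0.43 (limma, adjusted p = 0.0727). Other centromere and kinetochore genes stood at -0.56 (27 genes), with Cenph at -2.39 ± 0.44 (limma, adjusted p = 0.0884). The other 6 lists lay between -0.39 and -0.08. Condensin and cohesin genes were closest to 0, at -0.08 (16 genes). Smallest in p were the cohesin acetyltransferase Esco2, at -0.80 in DOX-7g minus D4-act-7g, and the cohesin ATPase Smc1a, at -0.53 in DOX-7g minus Dor-7g. In Dor-7g minus D4-act-7g, Esco2 and Smc1a stood at -0.42 and 0.10. In the remaining lists the genes with the smallest p were, with their differences in Dor-7g, Ube2s (-0.76) and the APC/C inhibitor Fbxo5 (-0.53), the spindle genes Tacc3 (-1.59) and Nde1 (-0.59), Pbk (-0.84) and Shcbp1 (-2.63), and Nfyc (-0.87) and Lin37 (-0.49), none of them past the threshold.

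Of the members and the 8 further lists, only that of brakes on mitotic entry held a call between the dormant groups. Cdkn1a, the Cdk inhibitor p21, read 8.77 and 8.62 on the D4-act-7g arrays, 7.43 and 7.99 on those of Dor-7g, and 9.86 and 9.78 on those of DOX-7g. It was thus lowest in Dor-7g and highest in DOX-7g, with no overlap. Cdkn1a was higher in DOX-7g than in Dor-7g by 2.11 ± 0.24 (limma, adjusted p = 0.0177), while its differences from D4-act-7g were -0.98 in Dor-7g (adjusted p = 0.154) and 1.12 in DOX-7g (adjusted p = 0.141). Gadd45b, a stress-induced inhibitor of Cdk1, stood at 3.05 ± 0.51 between the dormant groups (limma, adjusted p = 0.0771), with 5.91 and 7.48 in Dor-7g against 9.51 and 9.98 in DOX-7g.

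Markers of other cells that such samples could hold were read on the same arrays, and their part in the differences of the mitosis genes was not tested. The log2 levels of 12 uterine epithelium markers summed to 61.16 and 61.60 on the D4-act-7g arrays, 64.86 to 66.84 on those of Dor-7g and 64.66 to 65.97 on those of DOX-7g, and none of the 7 tested passed the threshold. Of these, Muc1 read 4.91 and 4.65, then 5.74 and 5.79, then 6.11 and 5.89, whereas Calb1, Prom1, Clca3a1, Sprr2f and Pax8 were below the median on all arrays. For 10 uterine stroma markers the sums were 49.00 and 49.08, then 53.11 to 57.69, then 49.65 to 51.05, with Dcn at 9.29 on Dor-7g replicate 2 and between 3.67 and 4.22 on the other arrays. For 10 blood and immune markers they were 46.70 to 49.31, then 49.86 to 55.00, then 63.93 to 64.83. The neutrophil genes S100a9 and Ly6g were higher in DOX-7g (limma, adjusted p = 0.00112 and 0.00434), at 9.55 on both arrays and at 7.41 and 7.39, and S100a9 was also higher in Dor-7g (adjusted p = 0.0274). Both were also higher in DOX-7g than in Dor-7g (limma, adjusted p = 0.00988 and 0.00422). S100a8 read 3.28 and 3.16, then 2.81 and 7.18, then 10.91 and 10.12, and did not pass in DOX-7g against D4-act-7g (limma, adjusted p = 0.0949). Other markers of the list went the other way: Cd68, Csf1r and Adgre1 were lower on both DOX-7g arrays than on both D4-act-7g arrays. Their differences of means were -1.55, -0.26 and -0.29. Tyrobp, Lyz2 and Ptprc were higher on both DOX-7g arrays than on both D4-act-7g arrays, by 1.33, 0.80 and 0.15. Tyrobp and Lyz2 did not pass the test (limma, adjusted p = 0.431 and 0.472), and Ptprc was too dim to be tested. The defining leukocyte markers Ptprc and Adgre1 were below the median on all arrays. For 11 oocyte markers the sums were 59.94 and 60.94, then 56.34 to 57.55, then 55.95 to 56.04, with Zp3 at 8.15 and 7.35, then 5.69 and 6.37, then 6.43 and 6.59, and none passed. For 9 cumulus and granulosa markers the sums were 42.95 to 43.16, then 43.51 to 46.19, then 42.82 to 43.59, and for 13 blastocyst lineage markers 88.06 to 89.03, then 89.22 to 89.34, then 88.55 to 89.12, with none past the threshold in either list.

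The promoter windows were also read for all members. Of the 50, 41 had an entry (45 windows in all), and Ccna2, Tpx2, Foxm1, Cdc25c, Aurkb, Smc4, Kif20a, Spc24 and Incenp had none. TTTGAA was found on either strand in 27 of the 41 genes, or 65.9%, beside 20.2% of 27025 genes with a window (17.9% of 32851 windows). CCAAT was found in 33, or 80.5%, beside 41.1% of genes (37.4% of windows). Both stood in the same window for 25 genes, or 61.0%, beside 8.0% of genes (7.0% of windows). Matches to the motifs can overlap: in the window of Cdca8, TTTGAA covers bases 14 to 19 after the start site and CCAAT, on the opposite strand, bases 19 to 23. A match is a description of letters, not of a bound site. Among members on the array, the 26 with TTTGAA had a median of -0.66 in Dor-7g and -0.43 in DOX-7g, and the 13 without it -0.89 and -0.45. With CCAAT the medians were -0.67 and -0.41 (31 genes), and without it -0.87 and -0.68 (8 genes). Large and small differences occurred with and without the motifs: in Dor-7g Cdk1, whose window holds both, and Mad2l1, with neither, both stood at -2.58, while Nuf2, with neither, stood at -0.16.

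**Figure D5:**
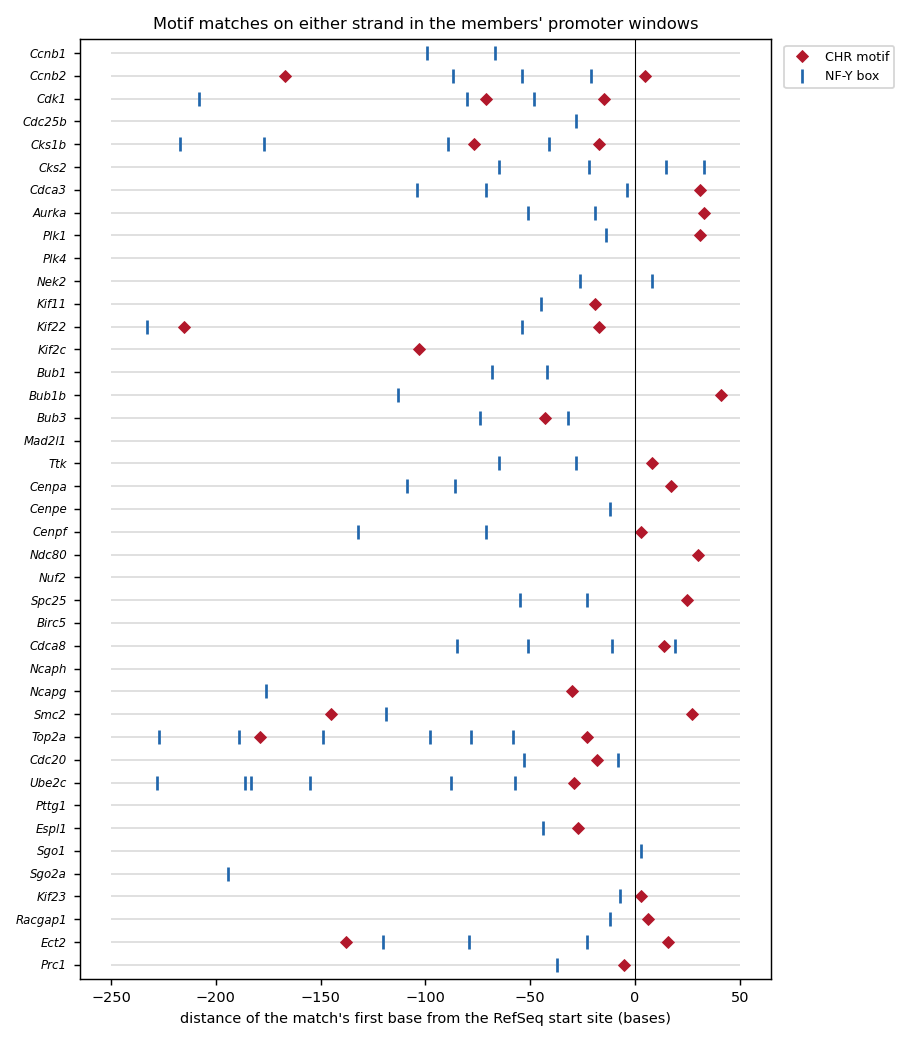
Matches to the CHR (TTTGAA, red diamonds) and the NF-Y box (CCAAT, blue bars), on either strand, by distance of their first base from the RefSeq start site (horizontal axis, bases), in 1 window for each of the 41 members with an entry, ordered by functional group. For a gene with several windows the one with the lowest coordinate is drawn. Of the 41 lines, those of Plk4, Mad2l1, Nuf2, Birc5, Ncaph and Pttg1 are empty.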

How the data were processed

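The authors deposited log2 values for 41345 probesets on 6 Mouse Gene ST arrays, made with Partek 6.6 and RMA per the submitters' processing notes, which state no settings. The table came with a genome build not given in the sources used here. Detection calls were not used. Groups and replicate numbers come from the titles. Exactly 1 symbol was annotated for 23521 probesets, several for 1814, and 16010 are unnamed here. Symbols were updated through RefSeq (GRCm38.p6), with 193 identifiers unmatched. All 14020 genes that passed the filter were fitted over all 6 arrays in limma 3.58.1 (R 4.3.3; lmFit, eBayes) with 1 mean per group and no block, which leaves 3 residual degrees of freedom, and p-values were adjusted by Benjamini-Hochberg within a comparison. The fit was checked on simulated data. The members and lists were chosen with earlier results of these data known. Values on every array are given for members past the threshold and for each group's 4 smallest p (fewer where fewer were tested), and for the other lists the genes past the threshold and the 2 with the smallest p are named. Cdk1, Cks2, Cdc25b and Kif2c were named with values after these were seen. Medians and counts without overlap use genes before the filter, since the filter favours genes that are high in 1 group. Where alternatives are compared, they use the tested members. Alternatives were 10 other settings and leaving out each array. The number of arrays limits the precision.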

Additional observations from a re-analysis of the deposited data

Results flagged for a closer look

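Kif2c, a microtubule-depolymerizing kinesin, lay above D4-act-7g on both Dor-7g arrays (0.05) and below it on both DOX-7g arrays (-0.13), a difference between the dormant groups of -0.18 that did not pass the test (limma, adjusted p = 0.663). The sign in Dor-7g turned with the scaling. Troap, of the further G2/M genes, showed the same pattern, with 6.13 on both D4-act-7g arrays, 6.22 and 6.18 on those of Dor-7g and 5.85 and 5.98 on those of DOX-7g, a difference between the dormant groups of -0.28 that did not pass either (limma, adjusted p = 0.545). Cdkn1a lay on opposite sides of D4-act-7g in Dor-7g and DOX-7g, and here the difference itself passed the test, at 2.11 (limma, adjusted p = 0.0177). Leaving out any D4-act-7g or DOX-7g array ended that call, and so did a fit of only the 4 arrays of the comparison and the replicate block, with adjusted p between 0.00468 and 0.133 over all alternatives.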

How the results depend on the processing

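Every median of the members kept its sign under all alternatives. In Dor-7g minus D4-act-7g, the count of members called was 4, and it was 2 with array weights, 2 with only the 4 arrays of the comparison, 1 with the replicate block (Birc5) and 0 to 15 when each array was left out, and the median of the tested members went from -0.81 to -0.94 with centred arrays and to -0.66 with no filter. In DOX-7g minus D4-act-7g, the count of 1 became 0 with a second quantile normalization, centred arrays, no filter, a filter at 4 of 6 arrays or the replicate block, 2 with only the 4 arrays of the comparison, 4 with array weights (Birc5, Mad2l1, Plk4 and Sgo2a) and 0 to 2 when each array was left out, where the median lay between -0.58 and -0.28. In DOX-7g minus Dor-7g, the median of 0.29 became 0.42 with centred arrays, and the count called was 0 to 8 when each array was left out. The count without overlap was 22 of 41 tested members, 20 higher and 2 lower in DOX-7g. It reached 34 (31 higher and 3 lower) without DOX-7g replicate 1, where a single array stands for its group. The share of all tested genes without overlap was not counted. Before the filter, 21 of the 48 members were higher (11.7% of all genes) and 2 lower (28.2%). All genes called ranged over the 10 other settings from 79 to 160, 90 to 461 and 86 to 162 in the 3 comparisons, and from 11 to 1172, 43 to 296 and 67 to 880 when each array was left out. A group left with 1 array is assumed to vary like the others. The cause of these shifts was not tested. Replicate numbers did not pair the samples: same-numbered arrays of different groups correlated in their deviations at -0.02, -0.01 and -0.14. No detection calls were used, so differences against a dim level may be compressed.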
